A study of Anguilla anguilla with 45 samples.

Results

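The caudal fins of European eels (Anguilla anguilla) fed polychlorinated biphenyls (PCBs) at the higher dose of the study were compared with the fins of unexposed laboratory eels. The comparison rests on 10 of the 45 arrays of the study, 5 of fish given 300 ng/g PCBs in the diet (fish 31 to 35) and 5 of control fish (fish 6 to 10), chosen by their titles. The labels write the dose as ng/g PS and do not explain what it is relative to. They give no age, sex or exposure time, and they do not say whether fish shared a tank, so the tests measure the spread between single fish. Contigs, assembled transcript sequences named only by a number, were taken where each group had 3 or more values, which kept 756 of 992. Each array carried the fin RNA of 1 fish, labelled with Cy3, and a common reference labelled with Cy5, a pool from 30 wild eels of Certes whose tissue the labels give as liver.

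PCBs are persistent, fat-soluble compounds that accumulate in long-lived, fatty fish such as the eel. Congeners of dioxin-like shape bind the aryl hydrocarbon receptor, a transcription factor that in fish switches on cytochrome P450 1A and other enzymes of detoxification. A caudal fin clip holds skin, connective tissue and bony rays, and can be taken without killing the animal, which is the non-invasive approach the study's title names. None of the contig numbers matched the eel gene table (0 of 992), so the response of that pathway could not be read here, and neither fin nor liver marker genes could be looked up. Values are log2 ratios to the reference pool, which the authors centred, so 0 is the median ratio of an array and not a level equal to the pool's. The files leave the sign of the ratio unstated, and the dyes in the labels do not settle it. It was read here as sample over reference, which is an assumption. Were it the opposite, every ratio and every difference below would change sign.

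Exposure to 300 ng/g PCBs moved no fin contig past the threshold. Of the 756 contigs tested with limma, 0 had an adjusted p under 0.05 (percent called, 0), and the smallest limma adjusted p was 0.405. An unadjusted p under 0.05 was reached by 24 contigs, 11 higher and 13 lower in exposed fins, which is 3.17% of those tested. Leaving out 1 array moved this count to 15 of 727 contigs without exposed fish 33 and 41 of 672 without exposed fish 35. It was 14 of 705, 13 of 720 and 10 of 721 without control fish 6, 7 or 10. Without any other single array it was 18 to 23. The group means went together across contigs, with a Pearson correlation of 0.861 and a Spearman correlation of 0.868 over the 756 contigs. This correlation describes the arrays only, since contigs are not independent and both groups were set against 1 reference pool.

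The differences between group means were small for most contigs. The median difference, 300 ng/g minus control, was 0.13 on the log2 scale, with quartiles of -0.22 and 0.46 and a range from -4.85 to 3.10. In 638 contigs (84.4%) the difference was under 1 in size, and in 22 it was over 2, with 4 higher and 18 lower in exposed fins. Those 22 were sparsely measured, with a median of 7 values per contig, and 1 of them had a value on all 10 arrays. The precision was coarse: the 95% interval of a difference reached a median of 1.54 to either side, and between 0.72 and 3.95 over the contigs. The intervals rest on a spread estimated from all 35 fin arrays in 7 groups, so spread in groups outside this comparison enters them. Those groups were fins at the lower PCB dose, fins of cadmium-exposed fish and wild fins of Certes, Gironde and Garonne. For contig_2266 the SD was 0.40 in exposed and 0.38 in control fins, while the SE of its difference was 1.13. For 5 contigs the interval lay between -1 and 1, and for 397 (52.5%) between -2 and 2. For the other contigs it reached past -2 or 2, and a contig that did not pass is not shown to be equal in both groups.

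**Figure D1:**
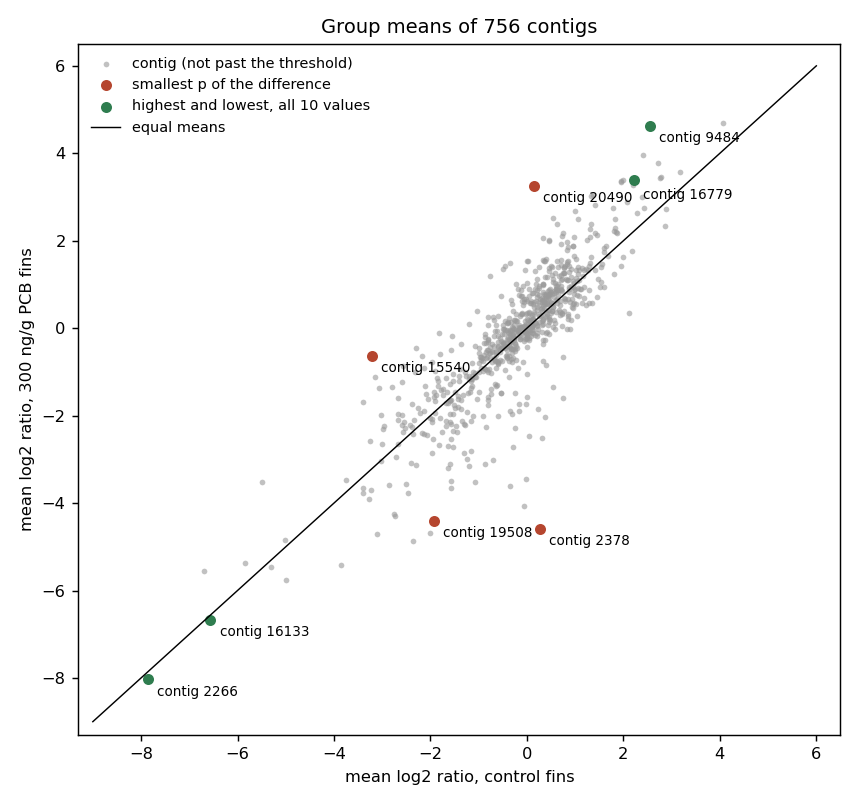
Mean log2 ratio of each of the 756 contigs in 300 ng/g PCB fins (vertical axis) against control fins (horizontal axis), with the line of equal means. Points follow the line (Pearson correlation 0.861), and none passed the threshold; the 2 contigs with the smallest p of the difference in each direction and the 4 highest and lowest contigs with all 10 values are named.

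The 2 contigs with the smallest p in each direction are given with all their values. contig_2378 had log2 ratios of -7.00, -7.30, -3.89 and -0.14 in exposed fish 31, 32, 33 and 35, against -0.17, -1.23 and 2.21 in control fish 6, 8 and 10. Exposed fish 35 lay within the control range, and the other 3 exposed values lay below it. The difference was -4.85 ± 1.21 (SE, limma adjusted p = 0.405), with a 95% interval from -7.36 to -2.35. Without fish 35 it was -6.33, with a limma adjusted p of 0.00106, and with limma's array weights -6.06, with a limma adjusted p of 0.00233. Over all 16 alternatives in which it could be tested the limma adjusted p ran from 0.00106 to 1.00, so the call of this contig depended on whether fish 35 entered and on how the arrays were weighted.

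contig_19508 had log2 ratios of -3.70, -4.11 and -5.41 in exposed fish 31, 32 and 33, against -0.50, -1.55, -2.71, -2.77 and -2.06 in control fish 6 to 10. The groups did not overlap, but fish 34 and 35 had no value. The difference was -2.49 ± 0.81 (SE, limma adjusted p = 0.998). Scaling the arrays to 1 spread brought it to -1.06, and quantile normalization to -0.94, so its size depended on the scaling.

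Among contigs higher in exposed fins, contig_20490 had log2 ratios of 5.76, 3.10 and 0.90 in exposed fish 31, 34 and 35, against 1.43, -1.41 and 0.45 in control fish 6, 7 and 10. The groups overlapped through exposed fish 35 and control fish 6. The log2 ratio differed by 3.10 ± 1.11 (SE, limma adjusted p = 0.998). contig_15540 was measured on all exposed arrays, at -1.80, 0.20, -3.37, 1.31 and 0.51 in fish 31 to 35, against -0.39, -3.16, -5.30 and -4.03 in control fish 6, 7, 9 and 10. Here control fish 6 and 7 lay within the exposed range, and exposed fish 31 and 33 within the control range. This gave a difference of 2.59 ± 0.96 (SE, limma adjusted p = 0.998). None of these 4 contigs had values on all 10 arrays.

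Few contigs separated the groups completely. In 12 of 756 contigs (1.59%) all exposed values lay on 1 side of all control values, 9 of them higher (1.19%) and 3 lower (0.397%) in exposed fins. The differences of the 9 ran from 0.57 to 1.87 and those of the 3 from -2.52 to -1.40. The widest of these, contig_18333, is named after its values were seen. It had log2 ratios of -4.37, -5.41, -5.39, -4.69 and -4.52 in exposed fish 31 to 35, against -1.66, -3.11, -1.61 and -3.07 in control fish 6, 8, 9 and 10. The difference was -2.52 ± 1.28 (SE, limma adjusted p = 0.998) with the spread of all fin arrays, and a fit of the 10 arrays alone gave it a limma adjusted p of 0.281. contig_15693 was the 1 contig among the 12 with values on all 10 arrays. It stood at 0.78, 0.72, 1.69, 0.53 and 0.62 in exposed fish 31 to 35, against 0.47, 0.53, 0.22, -0.54 and 0.36 in control fish 6 to 10. The closest values, of exposed fish 34 and control fish 7, were nearly equal, and the difference was 0.66 ± 0.67 (SE, limma adjusted p = 0.998). Of the 12 contigs, 1 had an unadjusted limma p under 0.05. With 1 array fewer, groups separate more easily. The count was 21 of 720 contigs without exposed fish 32 and 26 of 672 without exposed fish 35. It was 27 of 705 without control fish 6, 24 of 734 without control fish 9 and 14 to 17 without any other single array.

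The lowest and highest contigs were taken by their mean over all 10 arrays, a choice that favours contigs extreme in both groups. The lowest 2 of the 311 contigs with all 10 values were contig_2266 and contig_16133. contig_2266 had log2 ratios of -8.47, -8.02, -7.87, -7.47 and -8.34 in exposed fish 31 to 35, against -8.45, -7.47, -7.63, -7.99 and -7.72 in control fish 6 to 10. The 10 values of contig_2266 lay within about 1 log2 unit, and the groups overlapped throughout. The difference was -0.18 ± 1.13 (SE, limma adjusted p = 0.998). contig_16133 ran from -9.02 to -4.72 in exposed fins and from -8.05 to -4.98 in control fins, with a difference of -0.12 ± 1.01 (SE, limma adjusted p = 0.998), and the exposed range held all control values. The sign of this small difference changed with the setting, to 1.28 with arrays scaled to 1 spread and 0.24 with quantile normalization; scaling also turned contig_2266, to 1.98.

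At the upper end stood contig_9484 and contig_16779. contig_9484 had log2 ratios of 3.46, 2.98, 10.3, 3.44 and 3.01 in exposed fish 31 to 35, against 2.97, 2.60, 1.97, 3.48 and 1.70 in control fish 6 to 10. Exposed fish 33 stood apart, and the other 4 exposed values lay at the top of the control range. The difference was 2.09 ± 1.02 (SE, limma adjusted p = 0.998), but 0.68 without fish 33 and 0.41 with arrays scaled to 1 spread. contig_16779 had 2.93, 2.38, 5.89, 3.44 and 2.36 in exposed fish 31 to 35, against 2.53, 1.92, 2.29, 2.98 and 1.41 in control fish 6 to 10. Its highest value was again that of fish 33, and of the other exposed fins fish 34 alone lay above all controls. The difference was 1.17 ± 0.77 (SE, limma adjusted p = 0.998), but 0.55 without fish 33 and 0.068 with scaled arrays.

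More contigs lay far below the array median in exposed than in control fins. A group mean below -4 was found for 16 of 756 contigs in 300 ng/g fins and for 8 of 756 in control fins. On both lists were 7 contigs, 43.8% of the exposed list and 87.5% of the control list. Leaving out 1 exposed array gave 11 (without fish 33) to 22 (without fish 35) contigs in exposed fins. Control arrays were not left out for this count, and the counts of the 2 groups were not tested against each other. In the 7 contigs on both lists the means ran from -8.03 to -4.85 in exposed fins and from -7.85 to -4.99 in control fins. Their differences ran from -0.77 to 1.14. The 9 contigs on the exposed list alone had control means from -3.85 to 0.27, and 2 of the 9 had values on all 10 arrays. Above 4 stood 2 contigs in exposed fins and 1 of these in control fins. No contig had means over 1 from 0 on opposite sides (0 of 756), and in 401 contigs (53.0%) both means lay within 1 of 0.

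The 50 ng/g PCB group, which was compared with the same control fins, did not hold this pattern. In control, 50 ng/g and 300 ng/g fins, contig_2266 averaged -7.85 ± 0.38, 0.64 ± 0.68 and -8.03 ± 0.40 (SD, n = 5 each), and contig_16133 averaged -6.56 ± 1.11, -0.48 ± 1.24 and -6.68 ± 1.62 (SD, n = 5 each). For all 7 contigs below -4 in both control and 300 ng/g fins, the 50 ng/g mean lay between -0.48 and 0.64. contig_9484 averaged 2.54 ± 0.72, 1.17 ± 1.38 and 4.63 ± 3.15 in the same order of doses (SD, n = 5 each). contig_15540 stood at -3.22 ± 2.08 in control fins (SD, n = 4), -0.53 ± 1.45 at 50 ng/g and -0.63 ± 1.91 at 300 ng/g (SD, n = 5 each). The levels at 50 ng/g did not lie between those of control and 300 ng/g fins for contig_2266, contig_16133 or contig_9484. In the same order of contigs, wild Certes fins averaged -8.04, -5.68 and 1.18 and wild Garonne fins -8.00, -6.17 and 2.93. Livers of control fish averaged 0.59, 0.39 and 0.77, near the 50 ng/g fins for contig_2266. Whether the levels at 50 ng/g reflect the dose was not tested.

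**Figure D2:**
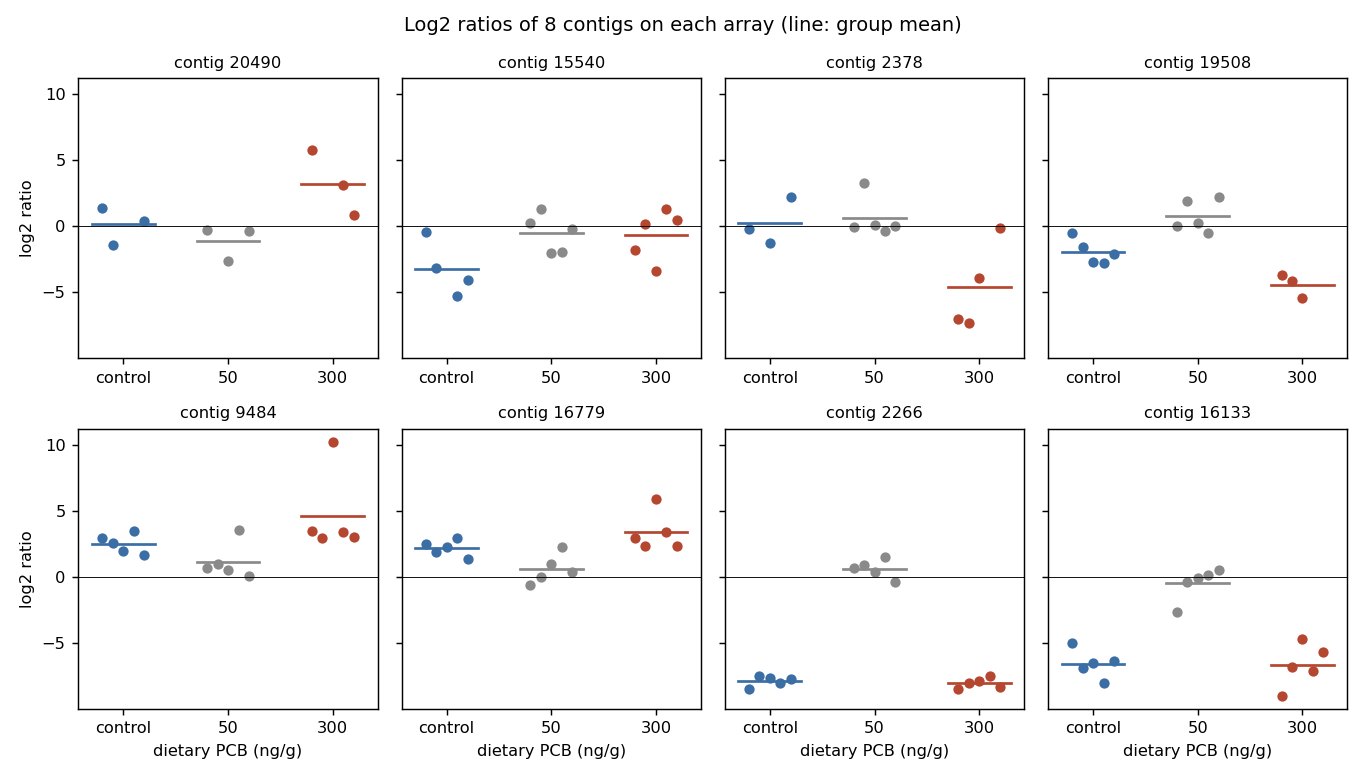
Log2 ratio on each array (points) and group mean (lines) of 8 contigs in control, 50 ng/g and 300 ng/g PCB fins, 5 arrays per group, with missing values not drawn. In the top row, the contigs with the smallest p, 300 ng/g and control values overlap for all but contig_19508; in the bottom row contig_2266 and contig_16133 lie near -8 and -7 in control and 300 ng/g fins and near 0 at 50 ng/g.

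On 4 of 5 measures taken per array, the exposed fish differed among themselves (SD) by more than the groups did. Exposed fish 31 to 35 had a value for 774, 701, 470, 820 and 936 contigs, against 987, 870, 799, 731 and 848 in control fish 6 to 10. The exposed array of fish 33 had the fewest values, and the 2 ranges overlapped. An exposed array averaged 740 ± 173 contigs and a control array 847 ± 94.7 (SD, n = 5 each). The groups differed by -107 contigs, with an exact two-sided permutation p of 0.278 (adjusted p = 0.302 over 5 tests per array). The smallest p that 5 against 5 arrays allow is 0.00794. Without fish 33 the difference was -39.3.

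The log2 ratios were spread widest on the array of fish 33. The interquartile range was 1.96, 1.60, 4.67, 1.79 and 1.33 in exposed fish 31 to 35, against 0.98, 1.53, 1.27, 2.29 and 1.57 in control fish 6 to 10. Without fish 33 the groups overlapped closely, with a difference of 0.14, against 0.74 with it (exact two-sided permutation p = 0.302, adjusted p = 0.302, n = 5 each). Over the 311 contigs measured on all 10 arrays the interquartile range of fish 33 was 1.91 and that of the others lay between 0.94 and 1.51.

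The share of contigs with a log2 ratio above 2 had the smallest p of the 5 measures per array. It was 9.04%, 8.56%, 15.5%, 8.29% and 7.59% in exposed fish 31 to 35, against 5.07%, 5.52%, 5.76%, 8.76% and 6.84% in control fish 6 to 10. All exposed arrays lay above all control arrays except that of control fish 9, which lay within the exposed range. The means were 9.80% ± 3.25 in exposed and 6.39% ± 1.48 in control fins (SD, n = 5 each), with an exact two-sided permutation p of 0.0317 and an adjusted p of 0.159 over the 5 tests. It thus failed the correction, and without fish 33 the difference was 1.98 percentage points, against 3.42 with it. Counted over the 311 contigs present on all 10 arrays, the share was 23.2% in fish 33, between 2.25% and 2.89% in the other exposed fins and between 0.96% and 3.54% in control fins.

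Contigs below -2 made up 14.9%, 15.3%, 36.2%, 11.5% and 5.98% of values in exposed fish 31 to 35, against 5.47%, 9.77%, 9.76%, 17.2% and 8.73% in control fish 6 to 10. The groups overlapped, with exposed fish 35 near the lowest control and control fish 9 above 4 of the exposed fins. The difference was 6.55 percentage points (exact two-sided permutation p = 0.286, adjusted p = 0.302, n = 5 each), and 1.70 without fish 33.

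**Figure D3:**
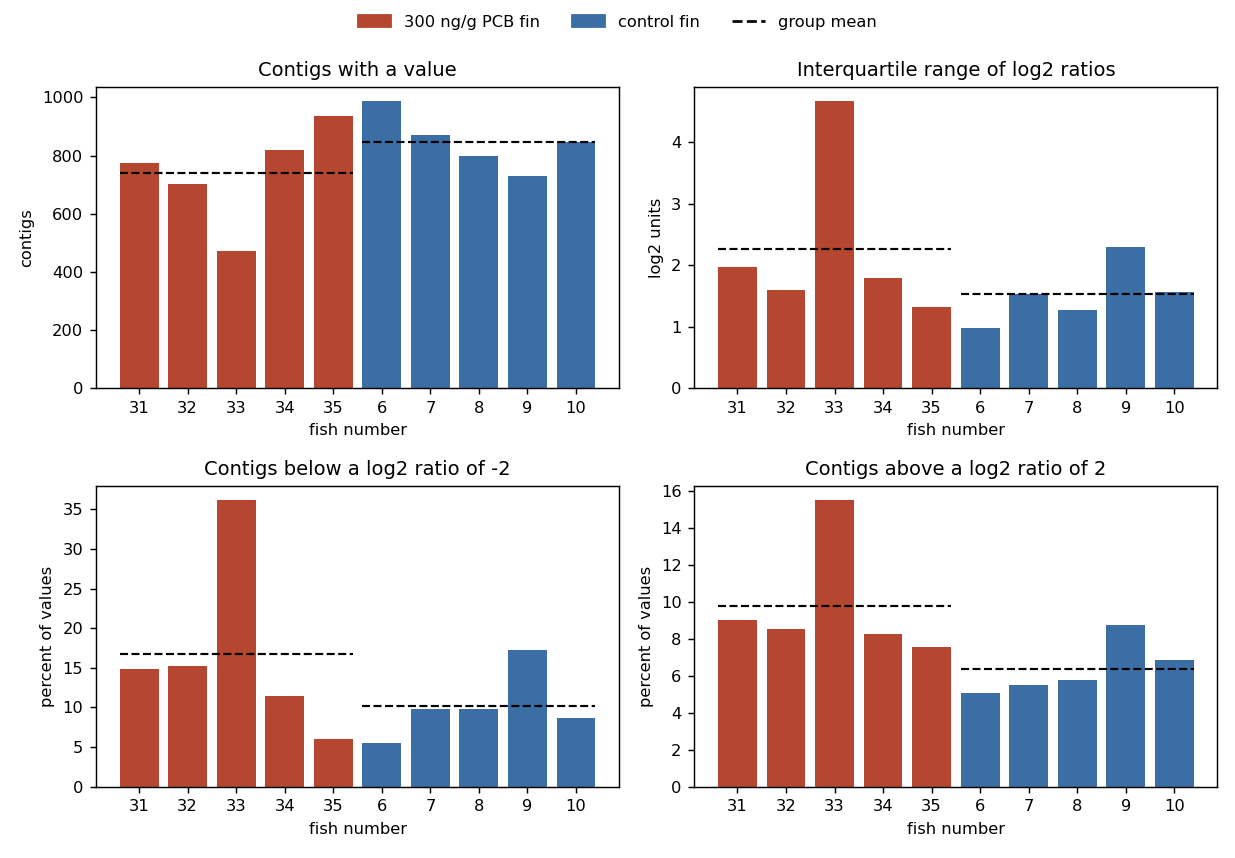
Contigs with a value, interquartile range of the log2 ratios, and percent of values below -2 and above 2, for each fish (bars) with group means (dashed lines), 300 ng/g PCB fins on the left and control fins on the right of each panel. Fish 33 has the shortest bar for contigs with a value (470) and the tallest in the other 3 panels.

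The authors centred each array on its own median, and the contigs shared by all arrays lay higher on the array of fish 33 than elsewhere. Over the 311 contigs with all 10 values its median log2 ratio was 0.87, whereas the other exposed fins lay between -0.46 and 0.03 and the control fins between -0.27 and 0.08. Of these 311 contigs 108 were lower in exposed than in control fins, with a median difference of 0.16. Without fish 33, 183 were lower, and the median difference was -0.08. Over all contigs with enough values, the median difference of 0.13 became 0.02 without fish 33, and recentring the arrays on the 65 contigs that no fin array lacked made it 0.20. Among the 311 contigs, the excess of higher contigs thus turned to an excess of lower ones without fish 33. Of the 756 contigs tested, 446 were higher and 310 lower, and fish 33 had a value in 426 of the 756. Whether the excess over all contigs tested rested on fish 33 was not tested.

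Missing values were more frequent in exposed fins, at 25.4% of values against 14.6% in control fins. Of the 236 contigs left out, 130 fell short of 3 values in exposed fins alone, 33 in control fins alone and 73 in both, and 120 of the 130 had no value in fish 33. A further 241 contigs had a value on every array but that of fish 33. The contigs that fish 33 lacked were not nearer to 0 than those it had: over contigs with 2 or more values in the other exposed fins, the mean log2 ratio there had a median size of 0.85 for the 439 contigs without and 0.77 for the 451 contigs with a value in fish 33. contig_1434 had 5 exposed values, -2.57, -4.74, -4.12, -3.96 and 0.96 in fish 31 to 35, against 2 control values, 0.03 and -0.73 in fish 6 and 10. contig_14481 had 1 exposed value, 0.17 in fish 35, against 5 control values between -0.66 and 0.83. These were the largest imbalances in the number of values, and neither contig entered the test.

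Most contigs also varied more among exposed than among control fins, but not without fish 33. The SD between arrays had a median of 0.72 in exposed and 0.57 in control fins over the 756 contigs, the median ratio of the SDs was 1.19, and 463 contigs (61.2%) had the larger SD in exposed fins. Without fish 33 the median ratio was 0.95, and 329 of 727 contigs had the larger SD in exposed fins. contig_25859 had the largest ratio among contigs with all 10 values, 13.2. It stood at 1.31, 0.64, 6.08, 1.57 and 1.25 in exposed fish 31 to 35, against 0.90, 0.79, 0.48, 0.87 and 0.72 in control fish 6 to 10. Fish 33 gave by far the highest value. The other exposed values, from 0.64 to 1.57, also ranged more widely than the control values, from 0.48 to 0.90. contig_26184 had the smallest ratio, 0.21, with 0.93, 1.21, 0.37, 0.62 and 0.46 in exposed fish 31 to 35, against 0.40, 0.51, -0.01, 3.88 and 2.50 in control fish 6 to 10. In that contig control fish 9 and 10 stood above all exposed fins.

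**Figure D4:**
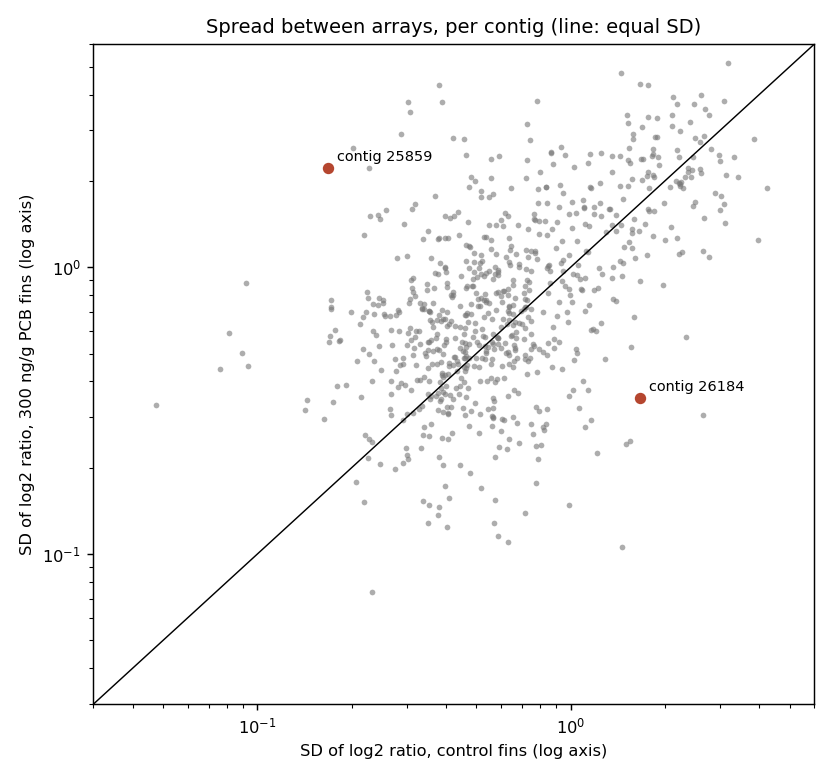
SD of the log2 ratio between the arrays of 300 ng/g PCB fins (vertical) and of control fins (horizontal) for each of the 756 contigs, on log axes, with the line of equal SD. More contigs lie above the line (463) than below it, and contig_25859 and contig_26184 have the largest and smallest ratios among contigs with all 10 values.

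With all 10 arrays, exposed fins resembled control fins about as much as each group resembled itself. Across contigs, the mean correlation was 0.594 for the 10 pairs of exposed arrays (0.167 to 0.821) and 0.644 for the 10 pairs of control arrays (0.549 to 0.731), and it was 0.626 for the 25 pairs of an exposed and a control array (0.281 to 0.873). The highest of all 45 values, 0.873, joined exposed fish 35 to control fish 6, and the lowest, 0.167, lay between exposed fish 33 and 35. Without fish 35 the exposed mean was 0.720, and without fish 33 it was 0.604. Beside the 0.720, exposed fish 31 to 34 correlated with the control fins at 0.666, 0.689, 0.559 and 0.598 on average. Leaving out fish 35 thus raised the mean among exposed arrays. The averages of exposed fish 31 to 34 with the control fins lay on both sides of 0.626, the mean over all 25 pairs. Fish 35 correlated with the other exposed fins at 0.405 on average and with the control fins at 0.620. For 4 of the 5 exposed arrays the nearest array was another exposed one, and for 4 of the 5 control arrays the nearest was also an exposed one. These correlations describe the arrays without a test, and all arrays share the reference pool.

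Wild fins of Certes and Garonne, which belong to neither group, gave an outside standard. The wild Gironde fins of the study were not used for it. With the mean profile of the 5 Certes fins the exposed fish 31 to 35 correlated at 0.43, 0.56, 0.13, 0.37 and 0.79, against 0.75, 0.47, 0.73, 0.52 and 0.51 for control fish 6 to 10. Fish 35 was the nearest to Certes of all 10 fins and fish 33 the farthest. The means were 0.455 ± 0.245 in exposed and 0.596 ± 0.134 in control fins (SD, n = 5 each), with an exact two-sided permutation p of 0.294 (adjusted p = 0.302). The difference of -0.140 was -0.058 without fish 33, -0.224 without fish 35 and -0.011 over contigs with all 10 values. With the mean profile of the 5 Garonne fins the values were 0.71, 0.80, 0.79, 0.53 and 0.33 in exposed fish 31 to 35, against 0.40, 0.58, 0.65, 0.76 and 0.59 in control fish 6 to 10. There the order turned, with fish 35 the lowest, and the group difference was 0.04 (exact two-sided permutation p = 0.746). Both profiles average whichever wild fins had a value, which for contig_19508 was 1 Certes fin. Contigs without any Garonne value, such as contig_2378, drop out of the Garonne profile, so the 2 correlations cover unlike sets of contigs. With the mean profile of control livers no array of either group exceeded 0.25, and the lowest value was -0.10. Each of the 10 arrays thus correlated more closely with both wild fin profiles than with liver. This cannot tell the tissue of an array, because the labels give the reference pool as liver and liver ratios set liver against liver.

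**Figure D5:**
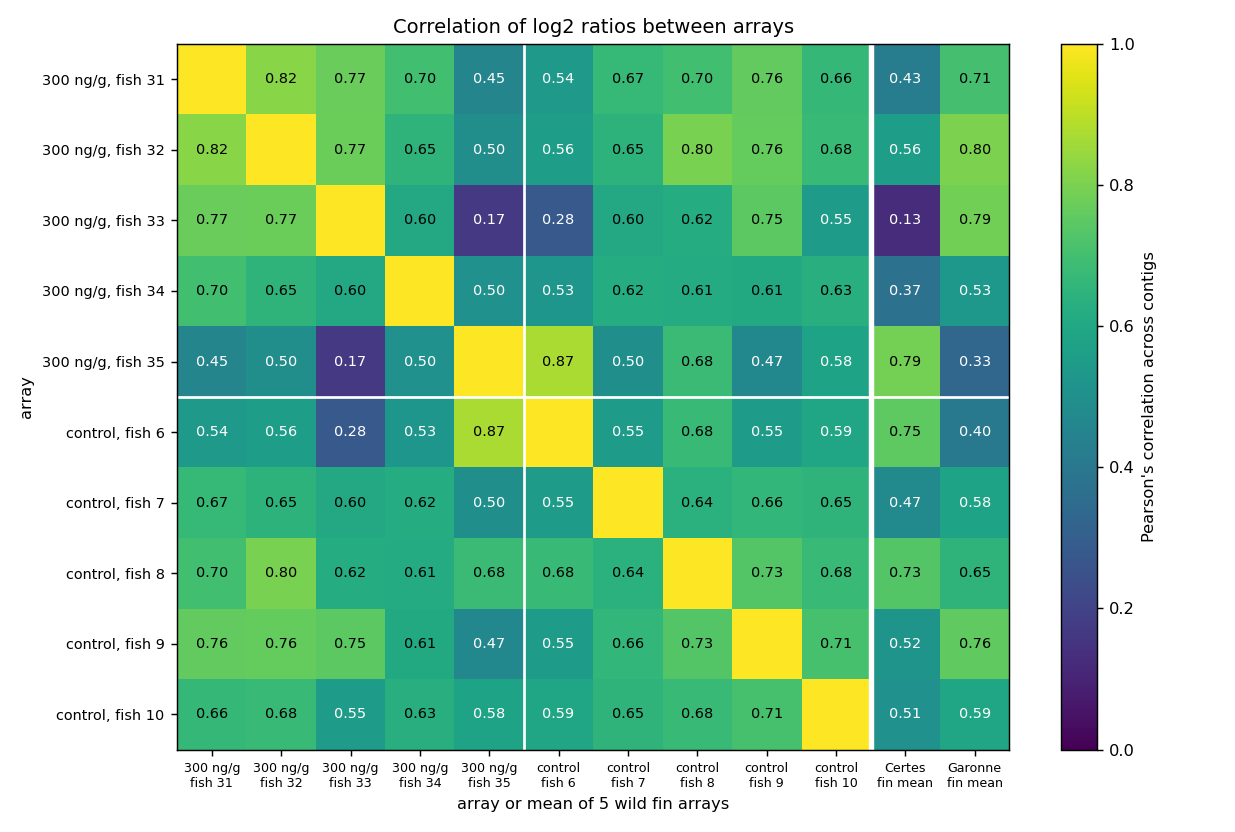
Pearson's correlation of log2 ratios across contigs between the 10 arrays, 300 ng/g PCB fins first and control fins after them, with 2 further columns for the mean of 5 Certes and of 5 Garonne fins. The highest value between arrays, 0.87, lies between exposed fish 35 and control fish 6, and the lowest, 0.17, between exposed fish 33 and 35.

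Contigs chosen by their level in Certes or Garonne fins alone overlapped between the groups as well. Of the contigs tested, 10 had a mean below -4 in Certes fins. Their mean log2 ratio was -5.05, -5.12, -4.42, -4.73 and -5.56 in exposed fish 31 to 35, against -4.63, -4.79, -5.15, -5.52 and -4.45 in control fish 6 to 10. On all 10 arrays this mean lay far below the array median, and the groups overlapped. Single contigs did not all lie so low: 1 was within 1 of 0 in exposed fish 31 and 34 and control fish 6 and 10. The means also cover unequal sets, with 8 values in exposed fish 34 and 9 each in exposed fish 35 and control fish 10. Of the 10 contigs, 0 passed limma's threshold or an unadjusted p of 0.05. The median difference was -0.12, beside 0.13 over all contigs tested.

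By the same rule 36 contigs had a mean below -4 in Garonne fins, a list that shares contigs with that of Certes, contig_2266 and contig_16133 among them. Their mean log2 ratio was -2.95, -4.05, -3.89, -2.11 and -1.82 in exposed fish 31 to 35, against -1.37, -2.61, -3.87, -3.51 and -2.15 in control fish 6 to 10. Exposed fish 34 and 35 and control fish 6 and 10 lay nearest to 0, and the groups overlapped. Of the 36 contigs 24 were lower in exposed fins, with a median difference of -0.46, 2 had an unadjusted p under 0.05 and 0 passed limma's adjusted p of 0.05. Over all 756 contigs tested 310 were lower, with a median difference of 0.13, and an unadjusted p under 0.05 was reached by 3.17%. Of the values of the 36 contigs, 2 of 35, 1 of 32, 0 of 35, 11 of 32 and 7 of 23 lay within 1 of 0 in exposed fish 31 to 35. In control fish 6 to 10 it was 15 of 35, 7 of 31, 0 of 23, 1 of 34 and 8 of 31. The list means therefore cover unequal sets of contigs. The 7 contigs above 4 in Garonne fins averaged 3.35, 2.37, 2.96, 2.88 and 2.30 in exposed fish 31 to 35, against 2.17, 1.96, 1.88, 2.34 and 1.91 in control fish 6 to 10, where fish 33 had a value for 2 of the 7. For this list the groups overlapped only in that exposed fish 35 lay below control fish 9. All 7 contigs were higher in exposed fins, by 0.25 to 1.41, beside 446 of all 756 contigs tested, and 0 of the 7 reached an unadjusted p under 0.05.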

How the data were processed

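The deposited values are the authors' log2 ratios per contig, in a table of 992 contigs and 45 arrays. The files show a median of 0 on each array, so the authors centred the arrays. Background correction and spot filters have no mention in the labels or files. A contig had a median of 3 spots in the scanner table. Its 180 columns of intensities are numbered by slide and were not used because they name no sample. For arrays, their number limits the precision.

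Group means of all 35 fin arrays in 7 groups were fitted to the log2 ratios with limma 3.58.1 (lmFit, eBayes; R 4.3.3). The 7 groups were control fins, fins of both PCB doses, fins of cadmium-exposed fish and wild fins of Certes, Gironde and Garonne. Missing values stayed missing. Tests were two-sided, adjusted by Benjamini-Hochberg over the 756 contigs with a minimum of 3 values per group, at a threshold of 0.05. The fit was also run on simulated data with independent normal noise for each value. Those data held no outlying array like that of fish 33, so the run does not bear on its effect. Measures per array were compared by exact permutation over 252 splits (scipy 1.17.1) and adjusted over 5 tests. The members, the lists and the tests were chosen with earlier results of these data known, and the lists from wild fins were added after the data were seen. No array of either group correlated below -0.3 with another of the 10 (lowest 0.167); within the fit, fish 33 and 32 correlated at -0.530 and -0.323 with fish 26 of the 50 ng/g group, and its sign was turned in an alternative.

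Named contigs were the 2 higher and 2 lower with the smallest p, the 2 highest and 2 lowest by mean over 10 arrays, the contig without overlap and with all values, and the extremes in number of values and in SD ratio. Gene lists named for the case that contigs had gene names were not tested, since 0 of 992 matched the table of assembly fAngAng1.pri.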

Additional observations from a re-analysis of the deposited data

Results flagged for a closer look

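In groups of 4 or 5 arrays the extreme value was set against the rest by its gap to the nearest other value as a share of the group's range. Of 30 such groups 5 stood out, all through the array of exposed fish 33. Chance gives about 1 in 20, but 3 of the 5 are contigs named by rules on these same values and the 5 share 1 array, so the count cannot be set against that rate. Its interquartile range was 4.67, with the next exposed fin at 1.96, and its share of contigs above 2 was 15.5%, with the next at 9.04%. Its value was 10.3 for contig_9484 (next exposed value 3.46), 1.69 for contig_15693 (next 0.78) and 6.08 for contig_25859 (next 1.57). Fish 33 also had the fewest contigs with a value, 470, and the lowest limma array weight of the 10, 0.23, where the others had 0.79 to 2.19. Its array was the most extreme exposed one in the direction of the difference in 10 of the 16 contigs with an unadjusted p under 0.05 that it measured. Those 16 were picked by p-values from these same values. The share over all 426 tested contigs with a value in fish 33 was not counted, so the 10 cannot be read as particular to them.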

How the results depend on the processing

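The count of contigs past the threshold was 0 under 21 of 23 alternatives and 1 under array weights and without exposed fish 35, contig_2378 each time (-6.06 and -6.33). Leaving out 1 array gave 0 to 1. Contigs with an unadjusted p under 0.05 numbered 24 of 756, but 60 of 756 with array weights and 13 of 756 with scaled arrays. A minimum of 2, 4 and 5 values gave 39 of 882, 14 of 635 and 3 of 311. Without 1 array there were 10 to 41: 15 of 727 without exposed fish 33 and 41 of 672 without exposed fish 35. Without control fish 6, 7 or 10 there were 14 of 705, 13 of 720 and 10 of 721. Fits without fish 33 and 35, or without fish 35 and control fish 6, were added after seeing the data and gave 0 each. At an unadjusted p under 0.05 stood 23 of 628 and 26 of 640 contigs. The 61 alternative values of the 5 measures per array ended or made no call; the correlation with wild fins changed sign with the Garonne profile, to 0.035. Differences of named contigs changed sign in 6 of 229 values: contig_2266 to 1.98 with scaled arrays, and contig_16133 to 1.28 with scaled arrays, 0.24 with quantile normalization, 0.46 without exposed fish 31, 0.28 without control fish 6 and 0.031 without fish 35 and control fish 6 (-0.61 to 0.46 without 1 array). The cause was not tested. The median SD ratio fell below 1 without fish 33, and ran from 0.95 to 1.43 without 1 array. Contigs without overlap numbered 12 of 756, and 7 of 756 with scaled arrays. A minimum of 2 and 5 values gave 28 of 882 and 1 of 311. Without exposed fish 32 or 35 they numbered 21 of 720 and 26 of 672. Without control fish 6 or 9 they numbered 27 of 705 and 24 of 734. Quantile normalization gave 8 higher and 2 lower, recentring 16 and 2. No paired analysis was possible because exposed and control fish carry different numbers. A contig could not be tested where a setting left either group with fewer values than its minimum, which left 16 alternatives for contig_2378 and 13 for contig_20490.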
